A study of Oryza sativa with 8 samples.

Results

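The 10 OsJAZ genes of rice (Oryza sativa) listed by their MSU release 7 locus identifiers were followed from intact to digested roots. They are 10 of the 55986 genes in the count tables, and were picked by identifier, not by a threshold on a measured value. RNA came from 4 libraries of intact roots, harvested directly from seedlings grown on gelled Yoshida's nutrient medium, and 4 libraries of digested roots, treated with a protoplasting cocktail of cell-wall-degrading enzymes and holding both the released protoplasts and undigested pieces. All 8 libraries were Xkitaake, which is labelled wild type but is the cultivar Kitaake carrying the immune receptor gene XA21 under a maize ubiquitin promoter, so both groups shared that transgene. The seedlings of both groups came from the same growth regime. It began with 50% bleach for 10 min and cold germination in the dark, at 4 °C for 2 to 3 days. Then followed 1 to 3 days at 28 °C in a growth chamber. The comparison was made to find genes that change when roots are turned into protoplasts. The labels do not say whether replicates came from separate cultures, so p-values measure the spread between these libraries, which may be technical.

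JAZ proteins are repressors of jasmonate signalling. In the resting state they bind MYC2-type transcription factors and hold jasmonate-responsive genes down. When the active hormone, jasmonoyl-isoleucine, joins a JAZ protein to the F-box receptor COI1, the JAZ is ubiquitinated and degraded and the transcription factors are freed. Jasmonate is known for wound and defence responses and for slowing root growth, and in Arabidopsis and rice many JAZ genes are themselves switched on by it, which gives a negative feedback. The family belongs to the larger TIFY family, and the TIFY names group its members: OsJAZ9, OsJAZ11, OsJAZ10 and OsJAZ12 are TIFY11A, TIFY11C, TIFY11B and TIFY11D, OsJAZ6, OsJAZ7 and OsJAZ8 are TIFY10A, TIFY10B and TIFY10C, and OsJAZ1, OsJAZ4 and OsJAZ5 are TIFY3, TIFY6B and TIFY9. These names were matched to RefSeq (assembly ASM3414082v1) for 10 of 10 genes, each on the chromosome its locus identifier gives. In that annotation 9 of the 10 JAZ names are also carried by another gene under a second numbering, so the locus identifiers fix which gene is meant here.

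Gene counts per library, after removal of PCR duplicates by molecular identifiers, ran from 2333236 to 3595349 in intact roots and from 115006 to 471019 in digested roots, with 21231 to 21955 and 12366 to 16703 genes detected. Reads aligned at more than 1 place, which were not counted, made up 3.93% to 5.36% of intact and 13.0% to 24.3% of digested reads. The part of this difference in the OsJAZ values was not tested. Levels are given in CPM, counts relative to the size of the library after scaling by TMM, a factor that evens out library composition. Each read marks the 3′ end of a transcript, so levels do not grow with transcript length, although the efficiency of tagging can differ between genes.

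In digested roots 7 of the 10 OsJAZ genes rose, 0 fell and 3 did not pass the test. The test was the quasi-likelihood test of edgeR, with p-values adjusted after Benjamini and Hochberg over 13104 genes and calls at an adjusted p under 0.05. OsJAZ9, OsJAZ11, OsJAZ12, OsJAZ10, OsJAZ5 and OsJAZ6 rose past a log2 fold change of 2, and OsJAZ4 by less. OsJAZ1, OsJAZ7 and OsJAZ8 were the 3 that did not pass. Among all tested genes 20.0% were called higher, 18.5% lower and 38.5% in either direction, while 9.06% passed a log2 fold change of 2 upward, against 6 of the 10 OsJAZ genes, and 7.80% passed -2 downward, against 0 of the 10. Of those 6, 4 (OsJAZ5, OsJAZ9, OsJAZ11 and OsJAZ12) passed the filter on low counts only through their high digested level, as set out below. The median log2 fold change was 3.69 over the 10 members, these 4 included. It was -0.06 over all tested genes, whose quartiles lay at -0.79 and 0.58. Every digested library lay above every intact library in 7 of the 10 members, beside 17.4% of all tested genes. These 7 are the called genes, with the same 4 among them, so this order adds no separate support to the calls. The opposite order, every digested library lowest, held for 19.8% of all tested genes and for 0 members. The count of 0 lower came with 1 member, OsJAZ7, lower at an unadjusted p under 0.05. DESeq2 called 1 member lower and limma-voom 0, and both called 7 higher.

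All 10 genes passed the filter on low counts, which asked for about 7.13 CPM in 4 libraries. OsJAZ5, OsJAZ9, OsJAZ11 and OsJAZ12 did so only through digested roots, where they were high, so their being tested already required a higher level there. OsJAZ8 was over that level in all intact libraries and the other 5 genes in both groups. In bulk RNA, a change in the share of a cell type and a change in RNA per cell cannot be told apart.

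**Figure D1:**
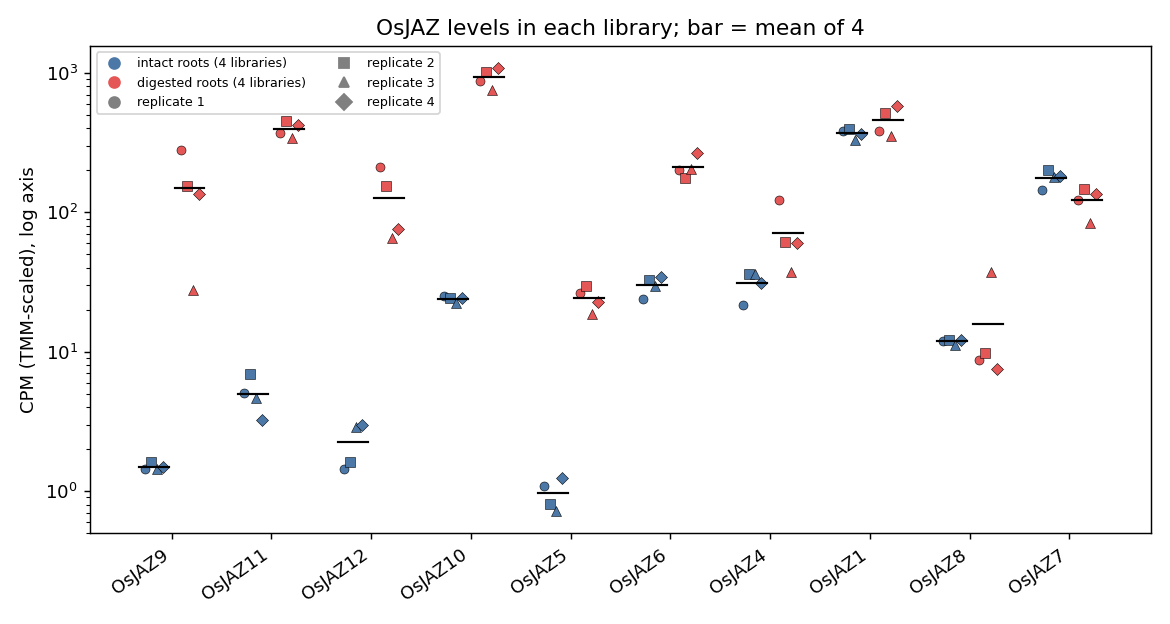
Level of each OsJAZ gene in each library, in TMM-scaled CPM on a log axis, with intact roots in blue, digested roots in red, marker shape for the replicate number and a bar at the mean of 4. OsJAZ9 to OsJAZ12, OsJAZ5, OsJAZ6 and OsJAZ4 show no overlap between the groups, whereas OsJAZ1, OsJAZ7 and OsJAZ8 do overlap.

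The largest changes fell on the TIFY11 group. OsJAZ10 (LOC_Os03g08330) had 25.2, 24.4, 22.2 and 24.2 CPM in intact replicates 1 to 4 and 877, 1010, 753 and 1083 CPM in digested replicates 1 to 4. It thus stood at a moderate level in intact roots and was the most abundant OsJAZ transcript in every digested library. The digested mean was 931 ± 146 CPM (SD, n = 4) and the log2 fold change 5.28 ± 0.19 (SE, edgeR adjusted p = 3.57e-18), or 38.8-fold with a 95% interval of 29.5 to 51.0.

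OsJAZ11 (LOC_Os03g08320) was low in intact roots, at 5.03, 6.91, 4.66 and 3.24 CPM, and reached 373, 455, 344 and 424 CPM in digested roots. The 4 digested libraries lay close together for this gene, with a coefficient of variation of 12.5%, the lowest of the 10 OsJAZ genes in digested roots. For OsJAZ11 the log2 fold change came to 6.36 ± 0.25 (SE, edgeR adjusted p = 9.17e-18), equal to an 82.4-fold rise with a 95% interval of 58.1 to 117.

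OsJAZ9 (LOC_Os03g08310) has been tied in rice to salt tolerance, through complexes with the adaptor NINJA and a bHLH factor. It was nearly silent in intact roots, at 1.44, 1.63, 1.44 and 1.5 CPM, which are 4, 4, 4 and 6 counts. Digested replicates 1 to 4 held 281, 155, 27.9 and 136 CPM, from 64, 63, 3 and 18 counts. Replicate 3 of the digested roots was thus the low one, and its 3 counts allow 5.75 to 81.5 CPM (exact Poisson 95% interval, counting error only), which lies under the interval of replicate 1. OsJAZ9 had the largest log2 fold change of the family, 6.69 ± 0.44 (SE, edgeR adjusted p = 2.86e-10), but its 95% interval of 5.76 to 7.62 covered the value of OsJAZ11. With a prior count of 2 in place of the smaller default the log2 fold change of OsJAZ9 was 5.90.

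OsJAZ12 (LOC_Os10g25290) had 1.44, 1.63, 2.87 and 2.99 CPM in intact roots and 210, 155, 65.1 and 75.7 CPM in digested roots. Digested replicates 1 and 2 stood above replicates 3 and 4, as they did for OsJAZ9, and replicates 3 and 4 are the 2 libraries with the fewest counts. The log2 fold change was 5.86 ± 0.36 (SE, edgeR adjusted p = 1.97e-13). With intact counts thinned to the depth of the digested libraries it was 4.59 for OsJAZ12 and 5.24 for OsJAZ11, and both stayed called.

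OsJAZ9, OsJAZ11 and OsJAZ10 are consecutive protein-coding genes on chromosome 3 in RefSeq. Their relative levels were not fixed. OsJAZ10 had 3.53 to 7.46 counts for each count of OsJAZ11 in intact libraries and 2.19 to 2.55 in digested libraries, so the ranges did not overlap. OsJAZ10 had 15 to 17.5 counts for each of OsJAZ9 in intact roots and 3.13 to 27 in digested roots, where the ranges did overlap. Since reads aligned at several places were not counted, values of such related genes remain uncertain where their 3′ ends are alike.

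The loci next to this row changed less. Of the 10 neighbours, 5 on each side by locus number, 5 were tested, 1 was called higher and 1 lower, and their log2 fold changes ran from -0.91 to 2.11, all under the 5.28 of OsJAZ10. Around all 10 OsJAZ genes there were 80 neighbouring loci, of which 27 were tested, 5 were called higher and 3 lower, beside 20.0% and 18.5% of all tested genes. One of the 5 called higher, near OsJAZ12, is also on the list of further JAZ-type loci described with the jasmonate genes and had a log2 fold change of 4.91.

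**Figure D2:**
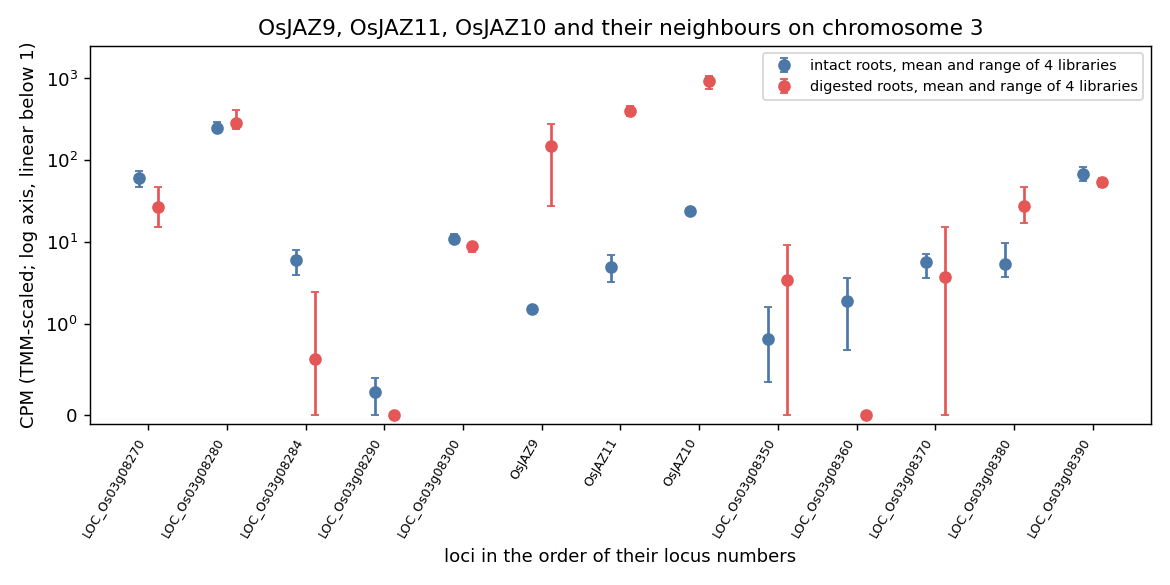
CPM of OsJAZ9, OsJAZ11, OsJAZ10 and the 5 loci on each side, in the order of their locus numbers, with the mean (point) and range (bar) of 4 intact (blue) and 4 digested (red) libraries on a log axis that is linear below 1. The 3 OsJAZ genes reached mean levels of 150, 399 and 931 CPM in digested roots from 1.5, 4.96 and 24 CPM in intact roots.

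The TIFY10 group was split. OsJAZ6 (LOC_Os03g28940) had 23.7, 32.9, 29.8 and 34.4 CPM in intact roots and 202, 177, 204 and 265 CPM in digested roots. It rose in every digested library to a similar height, with a log2 fold change of 2.77 ± 0.22 (SE, edgeR adjusted p = 2.37e-11), or 6.84-fold with a 95% interval of 5.01 to 9.33.

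OsJAZ7 (LOC_Os07g42370) was the second most abundant OsJAZ transcript of intact roots, at 146, 201, 179 and 182 CPM. In digested roots it had 123, 147, 83.6 and 136 CPM. Only digested replicate 2, at 147, reached into the range of the intact libraries. The log2 fold change was -0.47 ± 0.21 (SE, 95% interval -0.90 to -0.05, edgeR unadjusted p = 0.0314, adjusted p = 0.0747). It was negative under all 19 alternatives and passed the threshold under 8 of them, among them DESeq2 (-0.61, adjusted p = 0.0177), total-count scaling (-0.78, adjusted p = 0.00269), and the fits without digested replicate 2 (-0.77, adjusted p = 0.0213) and without intact replicate 1 (-0.58, adjusted p = 0.0206). Scaling by size factors (RLE), by upper quartiles and by total counts moved the median of all tested genes by -0.14, -0.27 and -0.31. Relative to that median OsJAZ7 stood at -0.41 with TMM and between -0.40 and -0.41 with the other scalings.

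OsJAZ8 (LOC_Os09g26780) has been studied in rice for its part in jasmonate-induced resistance to bacterial blight. It had 11.9, 12.2, 11.1 and 12.2 CPM in intact roots, from 33, 30, 31 and 49 counts. The coefficient of variation was 4.33%, but the exact Poisson 95% intervals of these libraries reach from 7.56 to 17.4 CPM. Such counts cannot show that the level was even. Digested roots gave 8.77, 9.83, 37.2 and 7.57 CPM from 2, 4, 4 and 1 counts. Replicate 3 was the high one, and its 95% Poisson interval of 10.1 to 95.2 CPM overlapped those of the other 3. The log2 fold change was 0.11 ± 0.49 (SE, 95% interval -0.90 to 1.12, edgeR adjusted p = 0.888) and turned to -0.46 without digested replicate 3, so no difference was detectable at this depth, and the interval spans ratios from 0.536 to 2.18.

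Each of the remaining genes is the only one of its TIFY group among the OsJAZ genes followed here. OsJAZ1 (LOC_Os04g55920), known in rice for roles in spikelet development and in the drought response, was the most abundant OsJAZ transcript of intact roots at 386, 398, 328 and 367 CPM. Digested roots gave 381, 514, 353 and 583 CPM. Replicates 1 and 3 of the digested roots lay within the range of the intact libraries and replicates 2 and 4 above it. The log2 fold change was 0.32 ± 0.18 (SE, 95% interval -0.04 to 0.68, edgeR adjusted p = 0.161), an interval that reaches up to 1.60-fold. Under total-count scaling it was 0.01.

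OsJAZ4 (LOC_Os09g23660) had 21.6, 36.2, 36.2 and 31.2 CPM in intact roots and 123, 61.4, 37.2 and 60.6 CPM in digested roots. The groups did not overlap, but the lowest digested library, replicate 3 with 4 counts, stood just above the highest intact one. OsJAZ4 rose by a log2 fold change of 1.25 ± 0.30 (SE, edgeR adjusted p = 0.00133). It was 0.76 without digested replicate 1 (adjusted p = 0.0796) and 0.80 with intact counts thinned to the digested depth (adjusted p = 0.0923), both above the threshold of 0.05, so the call was lost without 1 library.

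OsJAZ5 (LOC_Os04g32480) was the least abundant member in intact roots, at 1.08, 0.813, 0.718 and 1.25 CPM from 3, 2, 2 and 5 counts. Digested roots gave 26.3, 29.5, 18.6 and 22.7 CPM from 6, 12, 2 and 3 counts. The 2 groups lay far apart in CPM although each library held few counts. The log2 fold change was 4.60 ± 0.51 (SE, edgeR adjusted p = 1.81e-08) and 3.61 with a prior count of 2.

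**Figure D3:**
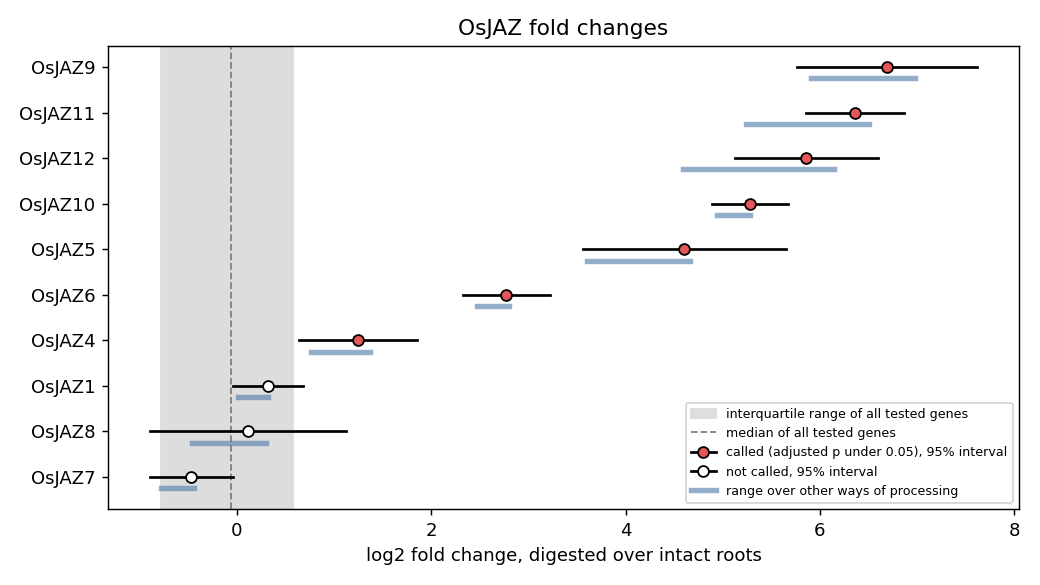
log2 fold change of each OsJAZ gene, digested over intact roots, with its 95% interval (black), filled where called, and the range over the other ways of processing (blue). The grey band is the interquartile range of all tested genes, from -0.79 to 0.58, and OsJAZ1, OsJAZ8 and OsJAZ7 lie inside it while the 7 called genes lie to its right.

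Together the changes reordered the family. In intact roots OsJAZ1 came first, followed by OsJAZ7, then by OsJAZ4, OsJAZ6 and OsJAZ10, then by OsJAZ8, OsJAZ11, OsJAZ12, OsJAZ9 and OsJAZ5. Neighbours in that order whose library ranges overlapped were OsJAZ4 with OsJAZ6, OsJAZ6 with OsJAZ10, and OsJAZ12 with OsJAZ9. In digested roots the order was OsJAZ10, OsJAZ1, OsJAZ11, OsJAZ6, OsJAZ9, OsJAZ12, OsJAZ7, OsJAZ4, OsJAZ5 and OsJAZ8. There OsJAZ10 stood above all others and OsJAZ11 above OsJAZ6, OsJAZ1 overlapped with OsJAZ11, each neighbour from OsJAZ6 to OsJAZ4 overlapped with the next, and so did OsJAZ5 with OsJAZ8.

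The summed level of the 10 genes was 653 ± 45.6 CPM in intact roots (616 to 715) and 2509 ± 398 CPM in digested roots (1924 to 2794, SD, n = 4), a 3.84-fold ratio of means. As a share of all gene counts the family took 0.0708% and 0.222%. OsJAZ10 alone made up 48.9% of the difference between the sums, OsJAZ11 21.2%, OsJAZ6 9.80%, OsJAZ9 8.00% and OsJAZ12 6.70%.

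The make-up of the OsJAZ counts changed accordingly. OsJAZ1 and OsJAZ7 together held 82.3% to 85.3% of them in intact and 19.4% to 25.7% in digested roots. OsJAZ9, OsJAZ10 and OsJAZ11 held 4.38% to 5.08% of the intact counts and 58.5% to 59.7% of the digested ones. The joint share of these 3 genes was thus nearly the same in each digested library, while OsJAZ9 by itself took between 1.45% and 10.8%. These shares are fractions of 1 total, so a gain of one gene lowers the share of the others without a fall in their level.

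**Figure D4:**
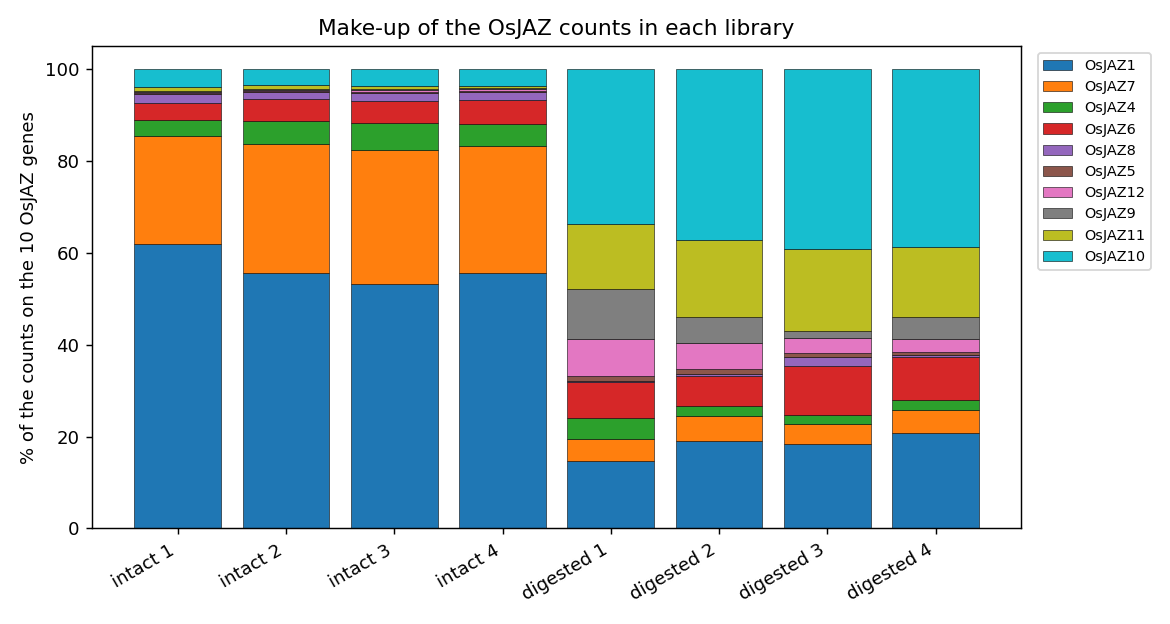
Share of each OsJAZ gene in the counts on all 10, in percent, 1 bar per library. OsJAZ1 (53.3% to 61.9%) and OsJAZ7 (23.4% to 29.0%) fill most of each intact bar, and OsJAZ10 (33.7% to 39.1%) is the largest piece of each digested bar.

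Other jasmonate genes gave a mixed picture, to be read beside the 20.0% called higher and 18.5% called lower among all tested genes. Of 7 loci listed for jasmonate synthesis, the pathway that makes the hormone from linolenic acid, 4 were tested, 3 were called higher and 1 was not called, with a median log2 fold change of 2.14 and a range of 0.52 to 3.53. Of 6 loci listed for perception and activation, the step at which the hormone is conjugated, bound and passed on to transcription factors, 5 were tested, 2 were called higher and 1 lower, with a median of 0.31. Of 5 further JAZ-type loci, 3 had no counts in any library, and of the 2 tested 1 was called higher. The files do not pair these identifiers with names, so they are given as counts, and the members of these lists were not checked one by one against an annotation.

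The Aux/IAA proteins are the corresponding repressors of auxin signalling, also degraded through an F-box receptor that binds the hormone. Of 31 Aux/IAA loci, 20 were tested, 6 were called higher and 8 lower, beside 20.0% and 18.5% of all tested genes. The tested Aux/IAA loci had a median log2 fold change of -0.46 and a highest value of 1.99. That highest value lies under each of the 6 largest OsJAZ values, of which OsJAZ6 is the lowest at 2.77. Of those 6, OsJAZ5, OsJAZ9, OsJAZ11 and OsJAZ12 passed the filter on low counts only through digested roots. OsJAZ4, OsJAZ1, OsJAZ8 and OsJAZ7 lie under the highest Aux/IAA value, at 1.25, 0.32, 0.11 and -0.47. The summed Aux/IAA level ran from 3854 to 4499 CPM in intact roots, and after digestion from 3922 to 4907 CPM, which overlaps.

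Markers of root cell types moved with the digestion as well. Of 58 marker genes taken from the study's list for 12 cell types, 47 were tested, with a median log2 fold change of -1.41. Of these, 1 was called higher and 28 lower, beside 20.0% and 18.5% of all tested genes. The summed level of the 58 markers ran from 3820 to 4197 CPM in intact roots, and after digestion from 1727 to 2158 CPM. All 58 markers had counts in intact roots, as the label of whole root would have it, and 6 had 0 counts in all digested libraries. Digested libraries held far fewer counts (115006 to 471019, against 2333236 to 3595349 in intact roots), so 0 counts there do not show absence. Among those tested, 7 of 8 trichoblast, 4 of 4 vascular and 6 of 8 xylem markers were called lower, whereas the 5 meristem markers did not pass the test, with log2 fold changes of -0.51 to 0.75. Also called lower were 3 of 5 cortex, 2 of 3 sclerenchyma and 2 of 4 atrichoblast markers and the 1 epidermis marker. So were 1 of 2 exodermis, 1 of 2 root cap and 1 of 5 endodermis markers. The 1 marker called higher was an atrichoblast marker, and 0 of the 4 phloem markers were tested. The part of these shifts in the OsJAZ values was not tested.

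**Figure D5:**
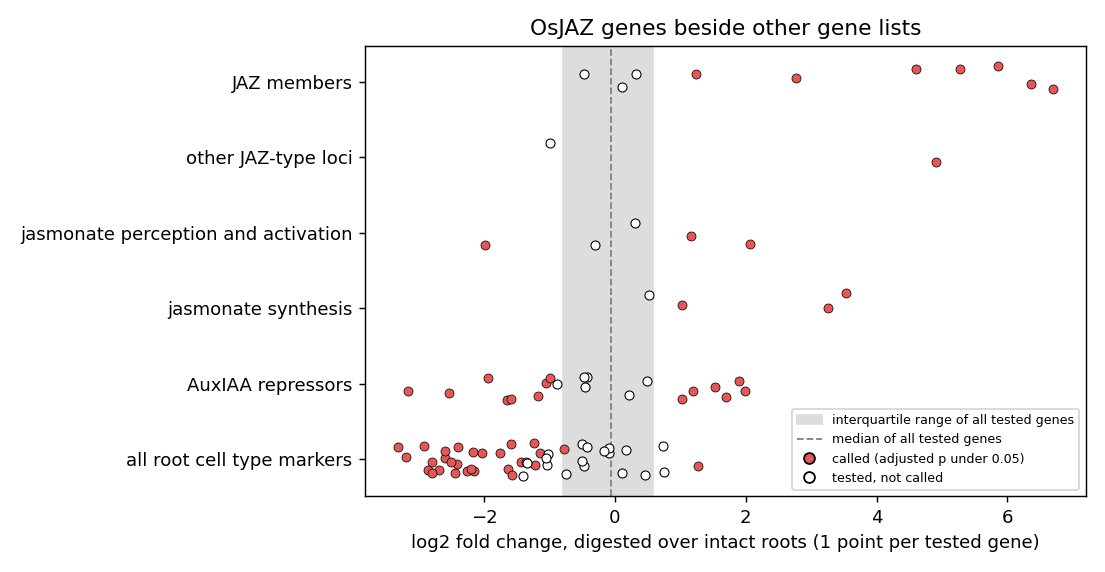
log2 fold change, digested over intact roots, of each tested gene of the OsJAZ family, further JAZ-type loci, jasmonate perception and activation, jasmonate synthesis, Aux/IAA repressors and root cell type markers, filled where called, with the interquartile range of all tested genes in grey. The OsJAZ genes reach 6.69, the synthesis loci 3.53 and the Aux/IAA loci 1.99, and the median of the markers lies at -1.41.

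The overall balance of calls depended on the scaling. With TMM 2618 genes were called higher and 2430 lower, with total counts 2048 and 3722, and with upper-quartile factors 2096 and 3507. Under each of these scalings 7 OsJAZ genes were called higher.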

How the data were processed

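RNA of 4 intact and 4 digested root samples was sequenced with QuantSeq 3′ FWD and molecular identifiers. The deposited values are raw counts per gene, 1 file per library, made by the authors with HTSeq after alignment to the MSU rice genome, release 7. The submitters' processing notes also list STAR, UMI-tools and edgeR, without versions. Library sizes and tests left out the 5 HTSeq lines that summarise uncounted reads. Groups came from the labels.

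Tests were run with edgeR 4.0.16 under R 4.3.3 (filterByExpr with groups and a minimum count of 10, TMM, glmQLFit robust, glmQLFTest, prior count 0.125), fitted on all 8 libraries with group alone and adjusted over all tested genes. The SE is the log2 fold change divided by the root of F. DESeq2 1.42.0, limma-voom (limma 3.58.1), other scalings, filters, prior counts, thinning, a replicate block and left-out libraries were alternatives. Figures used matplotlib 3.10.9. All 10 members were named by rule, with other loci as counts unless the study names them. One neighbour of OsJAZ12 was singled out after its values were seen. The members and lists were chosen with earlier results of these data known. The synthesis, perception and further JAZ-type lists come from general knowledge of rice loci, and the Aux/IAA and marker lists from the study.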

Additional observations from a re-analysis of the deposited data

Results flagged for a closer look

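In 34 groups of 4 values examined, 3 held a value far from the other 3 by Dixon's test, where 1.7 would be expected by chance. OsJAZ8 stood at 37.2 CPM in digested replicate 3, while the remaining digested libraries had 7.57 to 9.83 CPM. Reads that fell on more than 1 gene made up 0.0907% in intact replicate 4, where the others of its group had 0.112% to 0.117%. In digested replicate 1 they made up 0.240%, where the others of its group had 0.147% to 0.162%. The part of these shares in the OsJAZ values was not tested.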

How the results depend on the processing

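Of 179 OsJAZ log2 fold changes recomputed under alternatives, 162 kept their direction and side of the threshold, 2 lost the call (both OsJAZ4), 8 gained one (all OsJAZ7, lower) and 7 changed sign (all OsJAZ8). The 179 leave out fits in which a member fell under the filter and was not tested. OsJAZ5 and OsJAZ8 were tested under 14 of 19 alternatives and OsJAZ9 under 18. In the fits that left them out, OsJAZ5 and OsJAZ9 thus had no call either. OsJAZ8 was -0.0282 with RLE size factors, -0.20 with total counts, -0.16 with upper-quartile factors, -0.0133 with no filter, -0.0273 with DESeq2, between -0.46 (without digested replicate 3) and 0.19 when digested libraries were left out singly, and -0.41 without the 2 shallowest digested libraries, an alternative chosen after seeing the data under which 7 members were higher. Relative to the median of all tested genes OsJAZ8 stood at 0.18 with TMM and between 0.17 and 0.18 with the RLE, upper-quartile and total-count scalings, so its sign changes under these 3 followed the shift of all genes. The count of members lower went from 0 to 1 with RLE, total counts, upper-quartile factors, no filter, a filter of 1 CPM in 4 libraries and DESeq2, and ran from 0 to 1 when single libraries were left out, where the count of members higher ran from 6 to 7. Leaving out any intact library left 8 members tested, without OsJAZ5 and OsJAZ8. With intact counts thinned to the digested depth 7 members were tested, without OsJAZ5, OsJAZ8 and OsJAZ9, and 4 were called higher. In that thinned fit 2207 genes changed, 1163 higher and 1044 lower, from fewer genes tested (4594). Total counts gave 3722 genes lower, and an adjusted p under 0.01 gave 1611. The summed OsJAZ level of intact roots was 653 CPM with TMM and 708 CPM with total counts. With TMM it was 284 CPM without OsJAZ1, the largest member there. In digested roots it was 1578 CPM without OsJAZ10, the largest member there, so these 2 sums cover different genes. With replicate number as a block 7 members were higher and 0 lower, and 2226 genes were higher and 1954 lower. Same-numbered libraries did not deviate together (r from -0.30 to 0.06), and differently numbered ones gave r from -0.10 to 0.23. With 4 libraries per group and shallow digested ones, this cannot decide whether the numbers pair them, and the labels do not say. The fewest counts in intact roots fell on OsJAZ5, OsJAZ9 and OsJAZ12 (12, 18 and 28 over the group). In digested roots they fell on OsJAZ8, OsJAZ5 and OsJAZ4 (11, 23 and 65), and such counts limit the values of these genes. Apart from the shift with scaling, causes of the differences were not tested.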
